A study of Mus musculus with 8 samples.

Results

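The genes of the ADAMTS proteases, the matrix metalloproteinases (MMP) and their tissue inhibitors (TIMP) were examined in BMAL1 ChIP-seq data. The set held every protein coding gene of the curated RefSeq annotation of GRCm38 with a symbol of Adamts or Mmp followed directly by a number, plus Timp1 to Timp4. It came to 46 of 21000 protein coding genes, with 19 ADAMTS, 23 MMP and 4 TIMP genes. A peak was counted for a gene when the transcription start site nearest to the centre of the peak belonged to that gene, and 458 of 211109 peaks were counted in this way. The rule uses gene names and positions, and it was set with earlier results of these data known.

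HC11, an immortal epithelial line from the mammary gland of mice, can be brought to express milk protein genes. BMAL1 was precipitated from 2 undifferentiated cultures (UNDIFF6 and UNDIFF8, called UNDIFF1 and UNDIFF2 by the authors) and 2 differentiated cultures (DIFF1 and DIFF2), each set against its own input DNA. All cultures were kept for 48 h without EGF in 10% calf serum with insulin at 5 µg/mL. For differentiation, prolactin (5 µg/mL), dexamethasone (0.1 µM) and insulin (5 µg/mL) followed for 96 h, and chromatin was fixed in 1% formaldehyde. Cultures of 1 line stand for the mammary epithelium here, without the stromal, myoepithelial and immune cells that make many of these proteases in the gland. Peak lists hold no expression values, so the cell type was not checked against its markers.

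ADAMTS and MMP enzymes are zinc proteases that are made as inactive proenzymes and cut the extracellular matrix or proteins at the cell surface. ADAMTS enzymes are secreted and cut proteoglycans, procollagens and other large matrix proteins, whereas the MMPs include secreted collagenases, gelatinases and stromelysins and enzymes anchored in the membrane. TIMPs bind the active site of MMPs, and TIMP3 also blocks several ADAMTS enzymes. In the mammary gland these proteases take part in the branching of ducts and in the remodeling that follows weaning. BMAL1 is the clock transcription factor that binds E-boxes (CACGTG) as a partner of CLOCK.

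The lists differed widely in length. They held 6534 peaks in UNDIFF6, 5475 in UNDIFF8, 13683 in DIFF1 and 185417 in DIFF2. The tags behind them, read from the peaks' tags and normalized counts, came to about 35300000 in DIFF2 and to more in the other lists. Within each pair the listed tags of ChIP or input appear scaled to the other. The estimate may therefore follow the input's depth in some lists, and it does not rank the other lists by ChIP depth. DIFF2 thus had the longest list on the fewest tags by this estimate. The number of DIFF peaks that the study reports is close to that of the DIFF1 list and far below that of DIFF2. The study's methods state that 1 DIFF pair of ChIP and input was sequenced far more deeply and that only 1 of 5 portions of its reads was analysed, without saying which culture it was. Of the DIFF2 peaks, 86.0% had their centre in sequence that the reference genome soft-masks as repeats, against 21.4% to 26.6% in the other lists. Results are therefore given with and without DIFF2. A list shows where peaks passed the caller's limits and nothing below them, so a gene without a peak was not detected and cannot be called unbound.

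The ADAMTS, MMP and TIMP genes had 13 peaks in UNDIFF6, 12 in UNDIFF8, 34 in DIFF1 and 399 in DIFF2. These made up 0.199% of the UNDIFF6 list (95% Wilson interval 0.116 to 0.340), 0.219% of UNDIFF8 (0.125 to 0.383), 0.248% of DIFF1 (0.178 to 0.347) and 0.215% of DIFF2 (0.195 to 0.237). The intervals cover counting error only. The sequence that lies closer to a start site of these genes than to that of any other gene added up to 5.39 Mb, or 0.204% of the genome, and all 4 intervals include this value. The genes thus held peaks in about the share that their sequence takes of the genome, in both states.

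**Figure D1:**
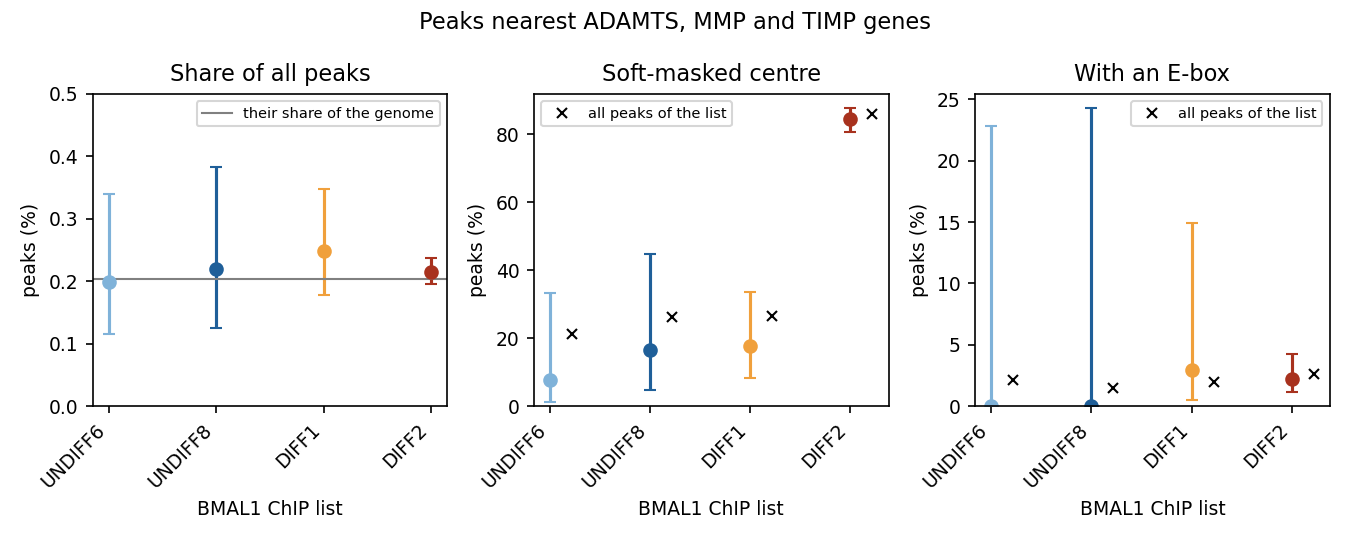
Peaks nearest the 46 genes in each list, with 95% Wilson intervals (bars): as a percent of all peaks of the list (left, the grey line is the genes' share of the genome), percent of these peaks with a soft-masked centre (middle) and percent with CACGTG (right). Crosses give the same percent over all peaks of the list; the share of all peaks lies between 0.199% and 0.248% in every list, and DIFF2 alone has most centres in soft-masked sequence.

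At least 1 peak was found at 7 of the 46 genes in UNDIFF6 (15.2%), beside 12.6% of all protein coding genes. The same count was 6 genes in UNDIFF8 (13.0%, all genes 8.70%), 18 in DIFF1 (39.1%, all genes 24.0%) and 43 in DIFF2 (93.5%, all genes 81.6%). These genes lie in more sequence than most: the median length nearest to a member was 56.7 kb, and 42.2 kb over all protein coding genes. Among the 14 members with at least 100 kb, 11 had a peak in UNDIFF6, UNDIFF8 or DIFF1 (78.6%), beside 62.0% of all genes of that length. Among the 32 shorter members 8 did (25.0%), beside 21.0%. Across the 46 genes, the number of peaks and the length of nearest sequence had a Spearman correlation of 0.54 for the 3 shorter lists together and of 0.74 for DIFF2. Genes that lie side by side share their surroundings, so this is a description only.

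**Figure D2:**
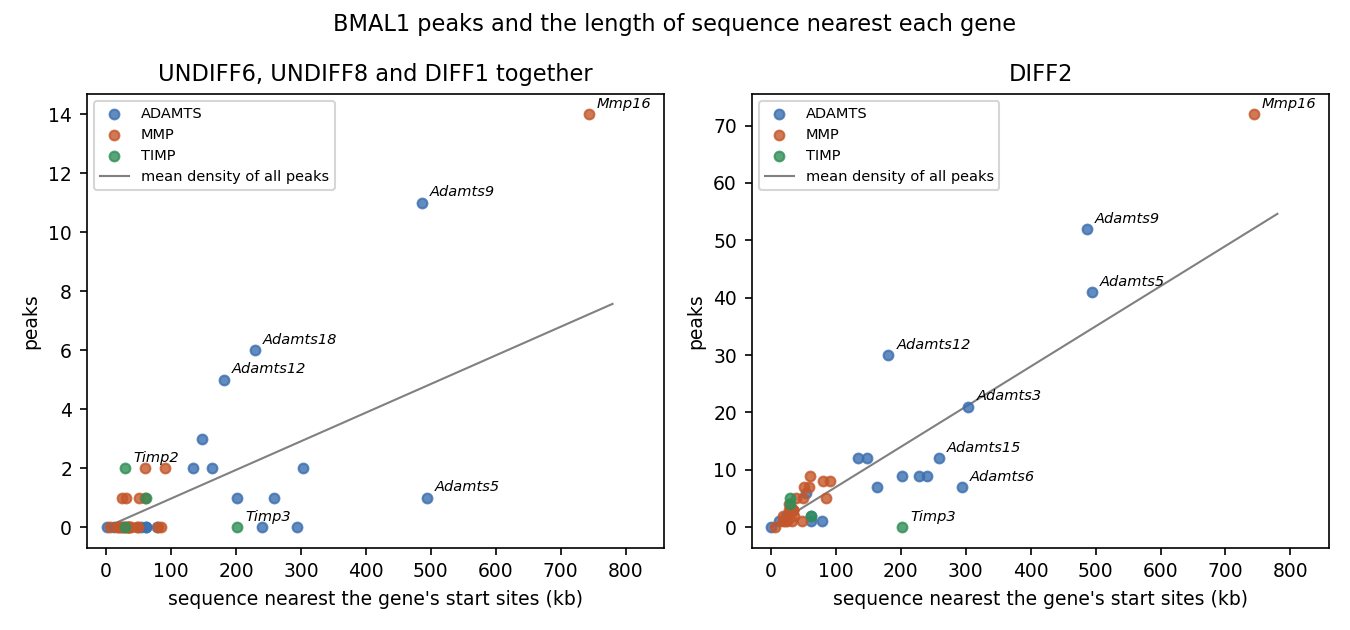
Number of peaks (y axis) against the length of sequence nearest each gene's start sites in kb (x axis), for UNDIFF6, UNDIFF8 and DIFF1 together (left) and for DIFF2 (right); each point is a gene and the grey line is the mean density of all peaks of the same lists. Mmp16, with the longest sequence (743 kb), has the most peaks in both panels, and Timp3, with 202 kb, has 0.

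Of the 46 genes, 4 had a peak in all 4 lists (Adamts9, Adamts18, Adamts20 and Mmp16), or 8.7% beside 3.97% of all genes. The same 4 genes were those with a peak in UNDIFF6, UNDIFF8 and DIFF1 (all genes 3.97%), and each of them also had DIFF2 peaks. All 4 have at least 100 kb of nearest sequence, where 4 of 14 members (28.6%) and 728 of 4865 protein coding genes were found in all lists. In UNDIFF6 the chromosomes of Adamts9, Adamts18 and Adamts20 had 6.06, 7.49 and 7.30 peaks per Mb, beside 2.47 over the genome. The chromosome of Mmp16 had 2.77. The part of chromosome density in this pattern was not tested. A peak in both DIFF lists and in neither UNDIFF list was found at 10 genes (21.7%, all genes 13.1%): Adamts1, Adamts5, Adamts15, Mmp9, Mmp12, Mmp15, Mmp20, Mmp25, Timp2 and Timp4. With at least 100 kb of nearest sequence this held for 21.4% of members and 21.2% of all genes, and with less for 21.9% and 10.7%. The opposite pattern was found at 0 of the 46 genes and at 0.00952% of all genes. A further 24 genes (52.2%, all genes 52.3%) had peaks in DIFF2 only, and 3 genes (6.5%, all genes 17.2%) had none in any list.

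**Figure D3:**
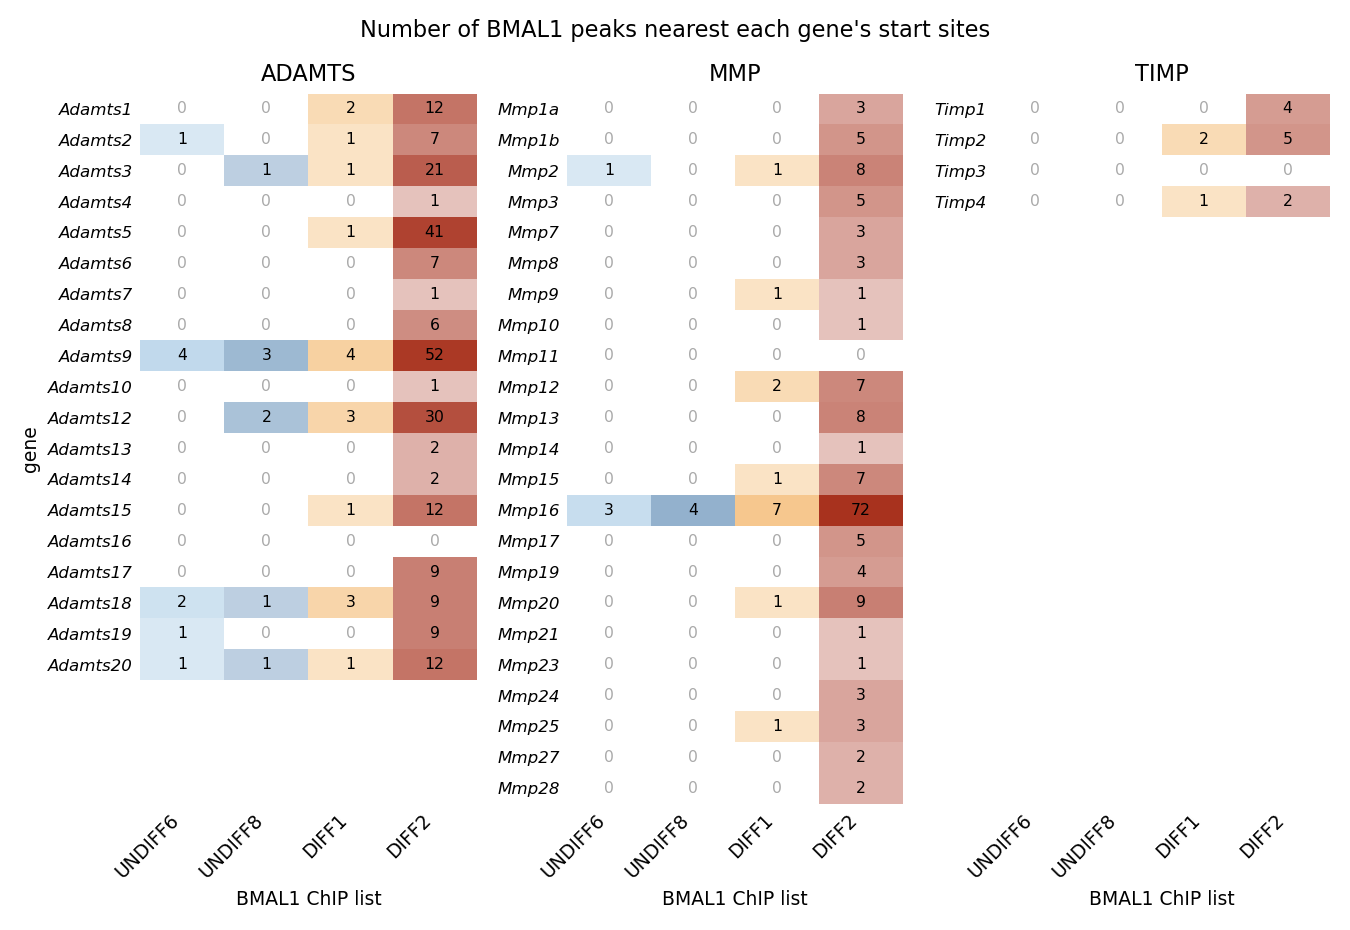
Number of BMAL1 peaks nearest the start sites of each ADAMTS, MMP and TIMP gene (rows) in each list (columns), with deeper colour for more peaks. Only Adamts9, Adamts18, Adamts20 and Mmp16 have a peak in every column, and Adamts16, Mmp11 and Timp3 have none.

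Among the aggrecanases and related proteoglycan-cleaving enzymes, Adamts9 carried the most peaks. Adamts9 (ENSMUSG00000030022, chr6:92772699-92944450, minus strand) encodes a protease that cuts versican, and had 4 peaks in UNDIFF6, 3 in UNDIFF8, 4 in DIFF1 and 52 in DIFF2. All 63 lay upstream of the gene, between 14.3 and 484.5 kb from its start site, and 51 of them lay beyond 100 kb. The UNDIFF6 peaks had folds over input of 2.67 to 3.98, those of UNDIFF8 2.14 to 5.48 and those of DIFF1 2.89 to 3.76, so the lists overlapped. Within the gene itself DIFF1 had 3 further peaks, which were nearest the start sites of the noncoding RNAs A730049H05Rik and Gm15737. DIFF2 had 15 there, which were nearest start sites of other genes. The assignment depends on the annotation: when predicted transcripts were added, Adamts9 kept 0 peaks in UNDIFF6, 0 in UNDIFF8, 3 in DIFF1 and 13 in DIFF2.

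Adamts5 and Adamts20 had contrasting counts in the shorter lists. Adamts5 (ENSMUSG00000022894, chr16:85858157-85901125, minus strand), the main aggrecanase of mouse cartilage, had 0 peaks in both UNDIFF lists, 1 in DIFF1 and 41 in DIFF2. Its nearest sequence of 494 kb was about as long as that of Adamts9. Chromosome 16 had 2.49 peaks per Mb in UNDIFF6 and 1.36 in UNDIFF8, beside 6.06 and 5.56 on chromosome 6, that of Adamts9. The part of chromosome density in these counts was not tested. The DIFF1 peak of Adamts5 lay in an intron 6.9 kb from the start site, while 38 of the 41 DIFF2 peaks lay upstream. With predicted transcripts added, the DIFF1 peak, and with it the site shared with DIFF2, went to the transcript Gm46558, and Adamts5 kept 11 DIFF2 peaks. A UNDIFF6 peak at chr16:85860064-85860258 lay in the 3′ untranslated part of Adamts5 but was nearest the start of a noncoding RNA. Adamts20, a versican-cleaving enzyme of the same branch as Adamts9, had 1 peak in UNDIFF6, 1 in UNDIFF8, 1 in DIFF1 and 12 in DIFF2, in 148 kb. Its UNDIFF6 and UNDIFF8 peaks were both centred in soft-masked sequence, and they lay 32.6 kb inside and 44.0 kb upstream of the start site.

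The other proteoglycan-cleaving genes had few peaks outside DIFF2. Adamts1, which cuts versican and aggrecan, had 0, 0, 2 and 12 peaks in UNDIFF6, UNDIFF8, DIFF1 and DIFF2, and Adamts15 had 0, 0, 1 and 12. The closest DIFF1 peak of Adamts1 was 7.4 kb upstream, whereas that of Adamts15 lay 138 kb downstream of its start, past the end of the gene. Adamts4 (1 peak) and Adamts8 (6 peaks) were found in DIFF2 only.

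Of the remaining ADAMTS genes, Adamts18 (6 peaks) and Adamts12 (5 peaks) had the most in the 3 shorter lists. Adamts12 (ENSMUSG00000047497, chr15:11064773-11349232), which cuts cartilage oligomeric matrix protein, had 0 peaks in UNDIFF6, 2 in UNDIFF8, 3 in DIFF1 and 30 in DIFF2. A UNDIFF8 peak lay in its intron at chr15:11068396-11068624, 3.7 kb past the start site, with 27.0 ChIP tags over 0.5 input tags (fold 55.87). The gene is longer than its nearest sequence, and 3 UNDIFF6 peaks in its far part were nearest the start of Tars. Counted inside the gene body, Adamts12 was the only gene of the set with peaks in all 4 lists, with 3, 2, 3 and 39 in UNDIFF6, UNDIFF8, DIFF1 and DIFF2. Adamts7, which also cuts this protein, had 1 peak in DIFF2 only. Chromosome 15 as a whole was dense, with 7.30 peaks per Mb in UNDIFF6 beside 2.47 over the genome, and the part of this density was not tested.

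Adamts18 (ENSMUSG00000053399, chr8:113697123-113849343, minus strand) is needed for normal growth of mouse mammary ducts. It had 2 peaks in UNDIFF6, 1 in UNDIFF8, 3 in DIFF1 and 9 in DIFF2. Of the 6 in the shorter lists, 5 lay upstream of the gene, from 8.3 to 105 kb, and none was centred in soft-masked sequence. The intronic DIFF1 peak at chr8:113823766-113823980 had a fold of 33.14, again over 0.5 input tags.

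The procollagen propeptidases trim procollagen before fibrils form. Adamts2 had 1 peak in UNDIFF6, 0 in UNDIFF8, 1 in DIFF1 and 7 in DIFF2, and Adamts3 had 0, 1, 1 and 21 in the same order. Adamts14, the third of the group, had 2 peaks in DIFF2 only. Adamts13, which cuts von Willebrand factor, likewise had 2 in DIFF2 only. Among the ADAMTS genes tied to fibrillin or to development, Adamts19 had 1 UNDIFF6 peak and 9 in DIFF2, while Adamts6, Adamts10 and Adamts17 had 7, 1 and 9 in DIFF2 alone. Adamts16 had none, but the start of the noncoding RNA Gm36529 lies 100 bp from its own and leaves it 0.73 kb of nearest sequence, and 4 DIFF2 peaks lay in its gene body.

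Mmp16 had more peaks than any other gene of the set in UNDIFF8, DIFF1 and DIFF2. Mmp16 (ENSMUSG00000028226, chr4:17853072-18117479) encodes a membrane-type MMP that can activate proMMP2, and had 3 peaks in UNDIFF6, 4 in UNDIFF8, 7 in DIFF1 and 72 in DIFF2. Of the 14 in the shorter lists, 10 lay past the 3′ end of the gene and 12 lay more than 100 kb from a start site. Its density was 96.9 peaks per Mb in DIFF2, beside 70.0 over all peaks. Mmp16 and Adamts9 together accounted for 25 of the 59 peaks in the shorter lists. Predicted transcripts left the Mmp16 counts unchanged in every list.

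**Figure D4:**
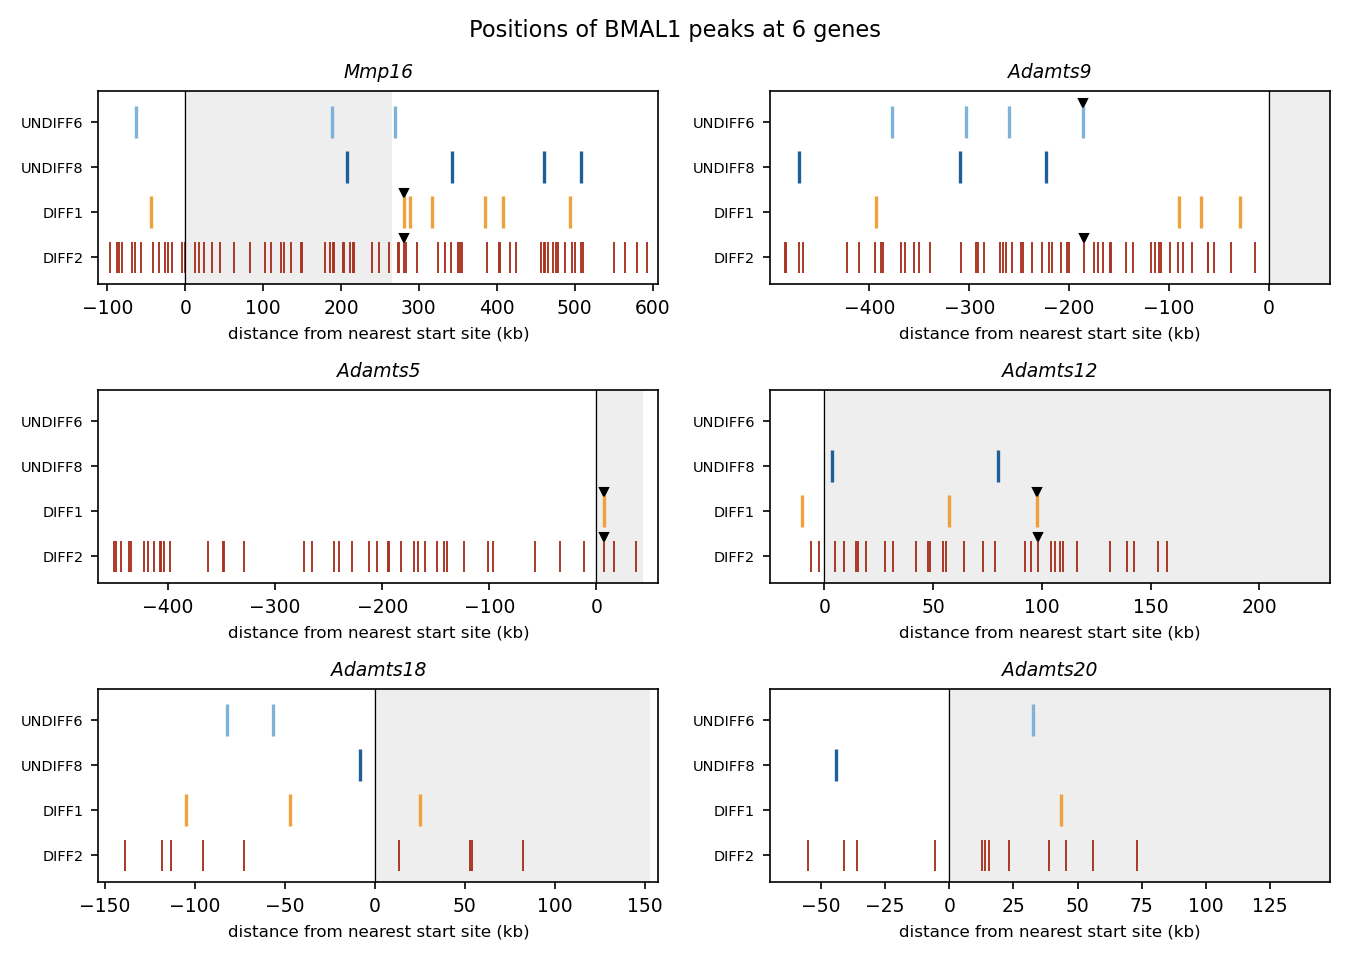
Distance of each peak from the nearest start site of its gene in kb (x axis, negative is upstream) in each list (rows), for 6 genes; shading marks the gene body, cut at the edge of a panel, and triangles mark peaks that overlap a peak of another list. All Adamts9 peaks lie upstream of the gene, and most Mmp16 peaks of UNDIFF8 and DIFF1 lie past its end.

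The other membrane-type MMPs had 0 peaks in both UNDIFF lists. Mmp15 had 1 peak in DIFF1 and 7 in DIFF2, and Mmp25 had 1 and 3. The Mmp15 DIFF1 peak was in its intron 2.9 kb past the start site, with 17.6 ChIP tags over 0.5 input tags. Mmp14, which activates proMMP2 at the cell surface, had 1 peak in DIFF2 only, and Mmp17 and Mmp24 had 5 and 3.

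The gelatinases degrade denatured collagen and basement membrane collagen. Mmp2 (ENSMUSG00000031740, chr8:92827290-92853421), which is needed for terminal end bud invasion in the mouse mammary gland, had 1 peak in UNDIFF6, 0 in UNDIFF8, 1 in DIFF1 and 8 in DIFF2. The UNDIFF6 peak lay 9.5 kb inside the gene and the DIFF1 peak 828 bp upstream of the start site, so that the peaks were at different places. Mmp9 had a single peak in DIFF1, 5.9 kb upstream of its curated start site but within the annotated extent of the gene, and 1 in DIFF2, 16.4 kb upstream.

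On chromosome 9, 10 MMP genes lie in a cluster between 7272514 and 7699585: Mmp13, Mmp12, Mmp1b, Mmp3, Mmp1a, Mmp10, Mmp8, Mmp27, Mmp20 and Mmp7. The cluster holds the collagenases, 2 of the 3 stromelysins, matrilysin, macrophage elastase (Mmp12) and enamelysin (Mmp20). It had 0 peaks in UNDIFF6, 0 in UNDIFF8, 3 in DIFF1 and 46 in DIFF2, and all 10 genes had a DIFF2 peak, from 1 at Mmp10 to 9 at Mmp20. The DIFF1 peaks were 2 at Mmp12 and 1 in an intron of Mmp20. Chromosome 9 was sparse in UNDIFF6 (0.43 peaks per Mb) and UNDIFF8 (0.17), and the nearest sequence of the cluster came to 465 kb. The part of chromosome density in its 0 peaks was not tested. In DIFF2 the cluster had 98.8 peaks per Mb, beside 55.9 on the whole chromosome. Soft-masked bases took from 25.6% (Mmp7) to 72.6% (Mmp1b) of the nearest sequence of its genes, beside 36.4% of the genome. The part of repeats in this density was not tested.

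The remaining MMP genes were found in DIFF2 only, with 4 peaks at Mmp19, 1 at Mmp21, 1 at Mmp23 and 2 at Mmp28, or in no list, as for Mmp11. Mmp11 (stromelysin 3), known from the stroma of breast tumors, has only 5.76 kb of nearest sequence.

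Timp3 stood apart among the inhibitors. Timp3 (ENSMUSG00000020044, chr10:86300412-86349505), whose loss speeds the death of mouse mammary epithelium after weaning, had 0 peaks in all 4 lists in 202 kb of nearest sequence. At least 1 DIFF2 peak was found at 97.1% of all genes with 100 kb or more, and Timp3 was the only member of that length without one. Soft-masked bases took 20.1% of its sequence, beside 36.4% of the genome, and chromosome 10 had 58.6 DIFF2 peaks per Mb. The part of repeats or chromosome density in this absence was not tested. Like Timp1 and Timp4, Timp3 lies inside a synapsin gene, in this case Syn3.

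Timp2, which blocks MMP2 but also takes part in its activation, had 0 peaks in UNDIFF6, 0 in UNDIFF8, 2 in DIFF1 and 5 in DIFF2. All 7 lay upstream, within 22.2 kb of the start site. The input at its DIFF2 peaks ran from 19.5 to 26.3 tags, while the median over the DIFF2 peaks of the 46 genes was 4.6, and their folds were 2.10 to 2.60. A UNDIFF6 peak in the Timp2 gene body that was nearest the start of Cep295nl also had a high input of 17.5 tags and a fold of 2.13. The part of the high input in these peaks was not tested. Timp4 had 1 DIFF1 peak at chr6:115254102-115254316, 2.0 kb upstream of its start in an exon of Syn2, the synapsin gene that contains it, with 25.8 ChIP and 6.0 input tags and the highest findPeaks score among the 34 DIFF1 peaks of the set (39.5). It had 2 peaks in DIFF2, and Timp1 had 4 in DIFF2 only.

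Few peaks overlapped a peak of another list, both at these genes and over all peaks. The share at these genes was 7.69% in UNDIFF6, 0% in UNDIFF8, 8.82% in DIFF1 and 1.00% in DIFF2. Over all peaks it was 7.27%, 11.05%, 6.285% and 0.859%. Of the 46 genes, 4 had a peak that shared at least 1 bp with a peak of another list (8.7%, all genes 4.08%), and without DIFF2 the count was 0 (all genes 0.562%). Among the 59 peaks of UNDIFF6, UNDIFF8 and DIFF1, the closest to a peak of another of these lists were 5.86 kb apart, upstream of Adamts9. The overlaps were thus 4 pairs with DIFF2, of which 3 were with DIFF1 (at Adamts5, Adamts12 and Mmp16) and 1 with UNDIFF6 (at Adamts9). All 4 genes have at least 100 kb of nearest sequence, where 4 of 14 members (28.6%) and 583 of 4865 protein coding genes had an overlap.

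The 3 sites found in both differentiated cultures carried the same piece of repeat. At Adamts12 the DIFF1 peak chr15:11162696-11162910 (fold 4.42) lay whole within a DIFF2 peak (fold 2.94), in an intron 98.0 kb from the start site. At Mmp16 the DIFF1 peak chr4:18134023-18134237 (fold 3.31) lay within a DIFF2 peak (fold 3.43) 281 kb downstream of the start site, past the end of the gene. At Adamts5 the DIFF1 peak (fold 3.46) and the DIFF2 peak (fold 7.38) shared 62 bp. A run of 17 bases was common to all 3 sites. It is shown in capitals with 22 bases on each side, 5′ to 3′ on the plus strand for Adamts12 and Adamts5 and on the minus strand for Mmp16.
Adamts12, chr15:11162837-11162897: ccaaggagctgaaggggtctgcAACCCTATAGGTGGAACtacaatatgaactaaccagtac
Adamts5, chr16:85894127-85894187: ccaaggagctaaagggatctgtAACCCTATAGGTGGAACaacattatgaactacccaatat
Mmp16, chr4:18134056-18134116: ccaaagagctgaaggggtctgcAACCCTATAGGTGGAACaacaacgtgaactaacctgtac
The run lay inside the bases shared by both lists at each of the 3 sites, and the sequence around it was similar. Adamts12 and Mmp16 had 34 identical bases in a row. The run occurs 49480 times in the genome, always in soft-masked sequence. It was found by comparing these sites with each other, so its presence in them is no test.

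Over all lists, the run was in 0.468% of DIFF1 peaks and 5.48% of DIFF2 peaks, and in 0.0918% of UNDIFF6 and 0.146% of UNDIFF8 peaks. It was held by 5.03% of the 776 peaks of DIFF1 with an overlap in DIFF2 and by 0.194% of those without. At the 46 genes it was in these 3 DIFF1 peaks and in 29 of the 399 DIFF2 peaks (7.27%), 7 of them at Adamts5 and 5 at Mmp16. How many reads at such copies mapped to a single place is not given in the lists, and its part in these peaks was not tested.

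The whole Adamts5 peak of DIFF1 is shown because only its first bases, in capitals, were shared with DIFF2. The reference soft-masks 85 of its 215 bases, and its centre was outside them.
Adamts5 DIFF1 peak, chr16:85894124-85894338: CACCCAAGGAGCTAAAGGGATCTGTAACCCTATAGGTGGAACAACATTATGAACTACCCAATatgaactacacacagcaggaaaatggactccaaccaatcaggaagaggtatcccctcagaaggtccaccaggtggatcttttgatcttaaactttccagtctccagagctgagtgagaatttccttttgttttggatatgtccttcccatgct
The site shared by UNDIFF6 and DIFF2 upstream of Adamts9 was unlike these. Its UNDIFF6 peak had 27.2 ChIP and 8.0 input tags (fold 3.41) and the DIFF2 peak 37.5 and 2.3 (fold 16.47), and the 85 shared bases are in capitals.
Adamts9 UNDIFF6 peak, chr6:93129163-93129357: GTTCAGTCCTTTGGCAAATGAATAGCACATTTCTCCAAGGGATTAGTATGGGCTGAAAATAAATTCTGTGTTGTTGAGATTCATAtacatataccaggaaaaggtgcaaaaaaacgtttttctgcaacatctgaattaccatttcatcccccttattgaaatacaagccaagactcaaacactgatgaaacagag
It lay 186 kb upstream of the gene, had no more than 8 bases in a row in common with any of the 3 other sites, and held 22 soft-masked bases of 195.

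The E-box CACGTG, which reads the same on both strands, was in 0 of 13 peaks in UNDIFF6, which allows a share of up to 23.1%, and in 0 of 12 in UNDIFF8 (up to 25.0%). It was in 1 of 34 peaks in DIFF1 (2.94%, Wilson interval 0.521 to 14.9) and in 9 of 399 in DIFF2 (2.26%, 1.19 to 4.23). Over all peaks the share was 2.13% in UNDIFF6, 1.46% in UNDIFF8, 2.01% in DIFF1 and 2.65% in DIFF2, and each of these values lies within the interval of the 46 genes. The DIFF1 peak was at Mmp16, 384 kb from the start site, with 16.6 ChIP and 2.0 input tags (fold 8.28). It is shown with its E-boxes in capitals.
Mmp16 DIFF1 E-box peak, chr4:18237778-18237992: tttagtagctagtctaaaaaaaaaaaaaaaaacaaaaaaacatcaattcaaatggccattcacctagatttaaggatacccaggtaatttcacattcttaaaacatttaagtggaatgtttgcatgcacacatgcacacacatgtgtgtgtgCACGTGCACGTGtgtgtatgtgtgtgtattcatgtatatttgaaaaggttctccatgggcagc
The peak holds 2 E-boxes side by side with 0 bases between them, inside a stretch of alternating bases that the reference soft-masks.

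The 9 E-box peaks of DIFF2 were at Adamts1, Adamts9, Adamts12, Adamts18, Adamts20, Mmp1b, Mmp7, Mmp20 and Mmp28. In 2 of them, at Adamts18 and Adamts9, the E-box lay outside soft-masked bases in a peak whose centre was also outside, and these are shown with 30 bases on each side.
Adamts18, chr8:113794573-113794638: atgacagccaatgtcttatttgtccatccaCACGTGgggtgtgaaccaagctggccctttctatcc
Adamts9, chr6:92957754-92957819: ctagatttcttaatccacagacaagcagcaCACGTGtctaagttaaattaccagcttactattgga
The Adamts18 site lay in an intron 54.3 kb from the start (22.5 ChIP and 4.6 input tags, fold 4.94). The Adamts9 site was its DIFF2 peak closest to the gene, 14.3 kb upstream (25.5 and 6.0 tags, fold 4.25). Neither had a peak in another list.

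Promoters, taken as the 1 kb before a start site and the 100 bp after it, rarely held a peak. They came to 0 of 13 in UNDIFF6, 0 of 12 in UNDIFF8, 1 of 34 in DIFF1 and 1 of 399 in DIFF2, beside 0.888%, 0.438%, 0.775% and 0.728% of all peaks. The DIFF1 peak was at Mmp2 (17.6 ChIP and 5.0 input tags, fold 3.51) and the DIFF2 peak at Mmp16, centred 9 bp upstream of a start site (27.5 and 9.1 tags, fold 3.02). The Mmp2 peak is shown whole and the Mmp16 peak by its central 200 bases, both on the plus strand, which is that of both genes.
Mmp2 DIFF1 promoter peak, chr8:92826362-92826576: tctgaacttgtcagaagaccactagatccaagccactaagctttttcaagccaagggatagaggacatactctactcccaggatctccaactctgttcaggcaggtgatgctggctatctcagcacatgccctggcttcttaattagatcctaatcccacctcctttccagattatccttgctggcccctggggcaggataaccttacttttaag
Mmp16 DIFF2 promoter peak, chr4:17853183-17853382: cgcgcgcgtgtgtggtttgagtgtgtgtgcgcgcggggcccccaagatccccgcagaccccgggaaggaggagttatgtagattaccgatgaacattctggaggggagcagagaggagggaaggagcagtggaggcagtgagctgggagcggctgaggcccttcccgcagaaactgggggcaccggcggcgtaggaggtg
Neither holds CACGTG. The reference soft-masks 0 bases of the Mmp2 peak, and the Mmp16 window is 65.0% G and C. In RefSeq promoters of GRCm38, from 250 bases before to 50 after a start, CACGTG was found in 2 of the 32 genes of the set that the table lists (Adamts17 and Mmp7) and in 7.15% of all promoters listed. Neither of these genes had a promoter peak.

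Most peaks were intergenic. In the 3 shorter lists 38 of 59 lay between genes and 18 in introns, and 240 of 399 lay between genes in DIFF2. Of the 59, 24 lay more than 100 kb from the start site and 9 within 10 kb. Within 10 kb were 1 of 13 peaks in UNDIFF6 (7.69%, all peaks 14.9%), 2 of 12 in UNDIFF8 (16.7%, all 12.4%), 6 of 34 in DIFF1 (17.6%, all 16.0%) and 50 of 399 in DIFF2 (12.5%, all 16.4%). Centres in soft-masked sequence were found for 9 of the 59 peaks and for 84.5% of the DIFF2 peaks.

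Enrichment over input was modest. The median fold of the peaks of these genes was 3.98 in UNDIFF6, 4.06 in UNDIFF8, 4.32 in DIFF1 and 5.19 in DIFF2, and over all peaks it was 3.40, 4.14, 4.31 and 5.15. The highest values rested on almost no input: 2 peaks of UNDIFF8, 3 of DIFF1 and 27 of DIFF2 reached 20-fold, with at most 1.0, 0.5 and 1.4 input tags. Tags are given as listed, and they appear scaled differently in each list, so they are not like counts across lists. The largest fold, 171.55 in DIFF2, lay 362.5 kb upstream of Adamts5 with 35.5 ChIP and 0.2 input tags. The highest score among the 399 DIFF2 peaks of these genes, 54.5, was 75.9 kb upstream of Adamts3 in soft-masked sequence (70.0 and 0.8 tags).

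**Figure D5:**
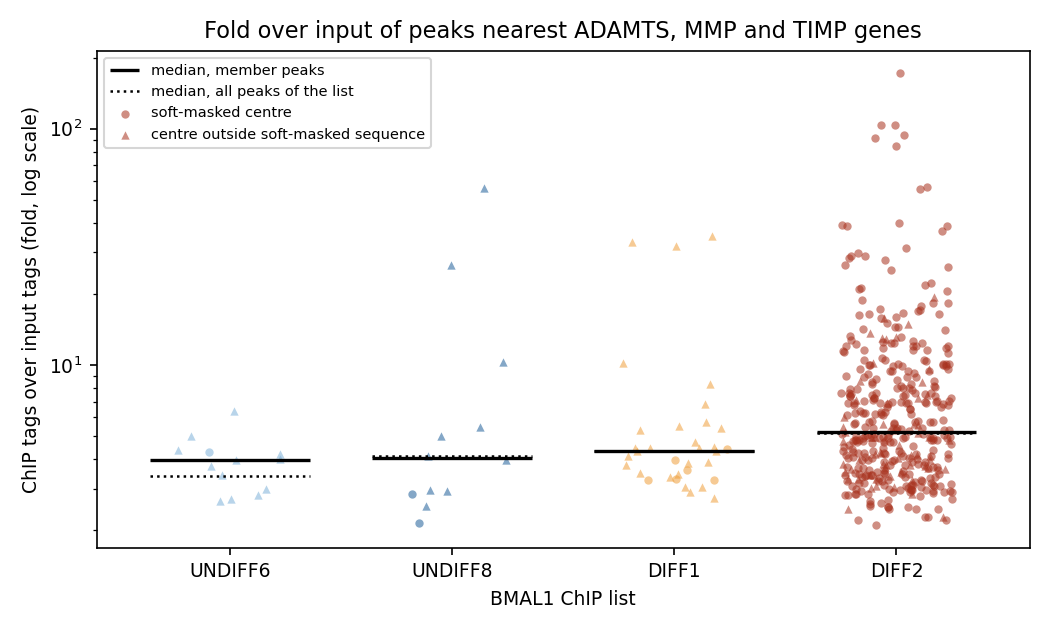
Fold over input (y axis, log scale) of each peak nearest the 46 genes, by list (x axis); circles have a soft-masked centre and triangles do not, solid lines are medians of these peaks and dotted lines medians of all peaks of the list. Most peaks lie between 2- and 10-fold in every list, and folds above 20 occur in UNDIFF8, DIFF1 and DIFF2.

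Between states, the number of peaks at these genes was 12.5 ± 0.707 in UNDIFF and 216.5 ± 258 in DIFF (SD, n = 2 each). On the log2 scale the difference of DIFF minus UNDIFF was 3.22, with exact permutation p = 0.33 (two-sided). This is the smallest p that 2 against 2 samples allow, so no comparison of states could pass a threshold of 0.05. The number of genes with a peak was 6.5 ± 0.707 in UNDIFF and 30.5 ± 17.7 in DIFF (exact permutation p = 0.33). The share of all peaks was 0.209% ± 0.0143 and 0.232% ± 0.0235 (exact permutation p = 0.67). With lists of equal length, the 5475 peaks of highest score in each, the genes had 12 peaks in UNDIFF6, 12 in UNDIFF8, 19 in DIFF1 and 9 in DIFF2, so that the states overlapped. Of the 10 genes found in both DIFF lists alone, only Timp2 then kept this pattern.

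Among 27 regulators, relatives and substrates of these enzymes, the lists held 5 peaks in UNDIFF6, 0 in UNDIFF8, 9 in DIFF1 and 158 in DIFF2. A peak was present at 4 of the 27 in UNDIFF6, 0 in UNDIFF8, 7 in DIFF1 and 25 in DIFF2, and 0 of the 27 were in all 4 lists. Overlapping peaks were found at 2 of them. A2m, the plasma inhibitor that traps active proteases, had a UNDIFF6 peak at chr6:121599391-121599585 that overlapped a DIFF2 peak by 192 bp, 36.7 kb upstream of its start, and Fbn2, which encodes fibrillin 2, had a DIFF1 peak in an intron that overlapped a DIFF2 peak by 152 bp. Of the substrates that the aggrecanases cut, Acan and Vcan had 1 and 9 peaks in DIFF2 only. The 34 ADAM genes encode membrane-bound relatives, of which some shed proteins from the cell surface. They had 23, 28, 34 and 388 peaks in UNDIFF6, UNDIFF8, DIFF1 and DIFF2, and 5 of the genes were in all 4 lists. Their density was 5.57 peaks per Mb in UNDIFF6 and 6.78 in UNDIFF8, against 2.41 and 2.23 at the ADAMTS, MMP and TIMP genes. In DIFF1 it was 8.23 against 6.31, and in DIFF2 93.9 against 74.0. The difference was not tested, and the densities of the chromosomes on which each set lies were not compared. Of the ADAM peaks, 5 in UNDIFF6 and 10 in UNDIFF8 were at Adam34l.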

How the data were processed

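BMAL1 peaks of 2 UNDIFF and 2 DIFF HC11 cultures were analysed, grouped by sample labels. The submitters' processing notes name FastQC 0.11.7, Bowtie2 2.2.9, HOMER 4.10 and GRCm38. The authors called peaks sample by sample, each against its input, requiring an FDR under 0.01 and 2-fold enrichment over input and local tags. They state that calling was less strict than the caller's defaults and that this likely raised the number of false positives. The deposited values are signal (ChIP tags, input tags and a normalized count), a fraction (the focus ratio), the score of findPeaks, ratios (fold over input, fold over local tags, clonal fold) and p-values without adjustment. Inputs have no list of their own and were not analysed separately here.

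Each peak's centre was assigned to the nearest start site among 45756 curated RefSeq transcripts (annotation of GRCm38.p6). Positions are as in the lists, overlap lengths are end minus start, and printed sequences, from the RefSeq genome, include both end positions. Overlap required 1 bp. Wilson intervals are at 95%. Means of the states were set against each other with a two-sided exact permutation test. The 46 genes and the lists of 27 and 34 others were chosen with earlier results of these data known. Named genes were those in all 4 lists, with overlapping or promoter peaks, with no peak, in both lists of 1 state alone, with an E-box peak outside DIFF2, or Adamts5, Adamts12, Adamts18, Adamts20, Mmp16 and the Timp genes; others were singled out within their class after their values were seen. Nearest start sites, overlaps and p-values were tested on simulated data. Computations used scipy 1.17.1, pandas 2.3.3 and numpy 2.4.6 under Python 3.11.15, figures matplotlib 3.10.9 and the simulated overlaps bedtools 2.31.1. Alternatives were equal list lengths, at least 4-fold over input, centres outside soft-masked sequence, peaks within 100 kb, predicted transcripts added, other overlap and E-box rules and each replicate left out. Replicates are separate ChIP experiments on cultures of 1 line, so p-values measure the spread between these samples only.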

Additional observations from a re-analysis of the deposited data

How the results depend on the processing

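Of 93 alternative values, 74 kept the direction (a difference of 0 was counted here) or stayed within 1.5 times the count given above, 17 moved and 2 turned. With equal list lengths the log2 median fold of DIFF minus UNDIFF was -0.11 in place of 0.24, and at 4-fold over input or more the difference in the share of peaks was -0.0116 percentage points in place of 0.0228. Genes in all 4 lists were 2 with equal lengths (Adamts9 and Mmp16), 1 at 4-fold (Mmp16), 2 within 100 kb (Adamts18 and Adamts20) and 1 by gene body (Adamts12), in place of 4. Genes in both DIFF lists and neither UNDIFF list were 1 with equal lengths, 5 at 4-fold, 5 outside soft-masked sequence and 4 by gene body, in place of 10. Genes with overlapping peaks were 0 with equal lengths, 0 at 4-fold, 0 outside soft-masked sequence, 2 within 100 kb, 2 with predicted transcripts and 2 where 50% of the narrower peak had to be shared, in place of 4. With each replicate left out in turn, genes in both DIFF lists alone ranged from 10 to 34, the most without DIFF1, and genes with overlapping peaks from 0 to 4, with 1 without DIFF1 and 0 without DIFF2. The log2 difference in peaks ranged from 1.45 without DIFF2 to 5.00 without DIFF1, and that in the soft-masked share from 5.47 to 72.3 percentage points. With equal lengths no list had an E-box peak at these genes, so that the difference was 0. The gene body rule was chosen after the data were seen. The causes of these changes were not tested. No paired analysis was possible because the UNDIFF and DIFF cultures share no replicate number and the inputs that share a ChIP sample's number have no list of their own. Depth limits every absence of a peak, and 12 or 13 peaks in an UNDIFF list give shares with wide intervals.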
